A study of Mus musculus with 7 samples.

Results

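The Gata3 gene of the mouse (ENSMUSG00000015619.10) lies on the minus strand of chromosome 2 at chr2:9857078-9890034 in GRCm38/mm10, and its main transcription start is at position 9878600. The regions described here were chosen by position alone. Of the 113820 chromatin regions measured in the experiment, 26 overlapped the gene or the 10 kb on each side of it and are called the Gata3 window. The other 94 regions within 700 kb of the gene are called distal, with 58 on the 3′ side, downstream of the gene and at lower coordinates, and 36 on the 5′ side. All 120 regions are accounted for below, and no filter on low values was applied to them.

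Accessibility was measured by ATAC-seq, in which a transposase inserts sequencing adapters into open chromatin. CD4+ T cells were sorted from C57BL/6 mice on day 8 after infection with 500 larvae of the helminth Nippostrongylus brasiliensis, at 50000 cells per library. GFP+ (IL-4+) cells came from the mediastinal lymph node (LN IL-4+, n = 2 libraries) and the lung (lung IL-4+, n = 3) of IL-4-4get reporter mice, in which GFP marks cells that transcribe Il4. YFP+ (IFNγ+) cells came from the lung of IFN-gamma-Great reporter mice (lung IFNγ+, n = 2). All mice were infected, and reporter-negative or uninfected cells were not analysed here. The labels number the libraries as replicates without naming the mice, so p-values measure the spread between these libraries. The IL-4+ and IFNγ+ cells also came from different reporter lines, and cell identity and reporter line cannot be told apart. Lungs were digested with enzymes, whereas lymph nodes were dissociated mechanically. Between lung and lymph node, tissue, cell state and preparation therefore cannot be told apart.

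Gata3 encodes a zinc finger transcription factor that T cells need for their development and that directs naive CD4+ T cells to the Th2 fate. It is induced downstream of IL-4 and STAT6, acts on its own gene, opens the Il4, Il5 and Il13 locus and is opposed by T-bet, the factor of Th1 cells. A T cell and NK cell enhancer of Gata3 has been mapped far on the 3′ side of the gene in the mouse, within a stretch poor in protein-coding genes. None of the regions below was matched to it, and none was tested for an effect on Gata3.

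The sequence of the Gata3 promoter and the central 300 bases of 5 of the distal regions with called differences are printed first, because the later values refer to them. Those of the called distal regions at 294.0, 201.2 and 194.6 kb downstream are not printed. The promoter is the 250 bases before the main start in GRCm38.p6, from RefSeq, at chr2:9878601-9878850 on the minus strand. The distal sequences are on the plus strand of GRCm38/mm10, at chr2:9367918-9368217 (510.5 kb downstream of the start), chr2:9586683-9586982 (291.8 kb), chr2:9684569-9684868 (193.9 kb), chr2:9689571-9689870 (188.9 kb) and chr2:9801495-9801794 (77.0 kb). The centre of a region is not necessarily its summit. Capitals mark GATAA, the core of the GATA motif, or TTATC, the same letters on the other strand, and TGTGGTT, which is the Runx motif AACCACA on the other strand.
Gata3 promoter: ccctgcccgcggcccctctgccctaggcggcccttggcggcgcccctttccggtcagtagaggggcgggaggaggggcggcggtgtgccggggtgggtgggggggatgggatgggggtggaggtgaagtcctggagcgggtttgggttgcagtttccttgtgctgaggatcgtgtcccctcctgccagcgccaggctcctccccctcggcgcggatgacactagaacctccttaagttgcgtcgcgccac
510.5 kb region: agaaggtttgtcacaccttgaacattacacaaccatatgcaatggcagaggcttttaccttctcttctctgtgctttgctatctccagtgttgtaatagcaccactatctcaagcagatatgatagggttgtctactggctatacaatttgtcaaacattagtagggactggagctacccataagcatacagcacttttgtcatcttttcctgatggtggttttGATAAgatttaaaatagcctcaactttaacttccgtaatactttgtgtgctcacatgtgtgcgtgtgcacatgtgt
291.8 kb region: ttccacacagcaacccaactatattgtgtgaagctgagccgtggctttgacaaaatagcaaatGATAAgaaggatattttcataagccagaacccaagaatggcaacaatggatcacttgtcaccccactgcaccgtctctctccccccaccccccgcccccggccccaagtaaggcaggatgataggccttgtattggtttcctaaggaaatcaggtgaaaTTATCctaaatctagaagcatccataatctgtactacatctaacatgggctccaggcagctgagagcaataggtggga
193.9 kb region: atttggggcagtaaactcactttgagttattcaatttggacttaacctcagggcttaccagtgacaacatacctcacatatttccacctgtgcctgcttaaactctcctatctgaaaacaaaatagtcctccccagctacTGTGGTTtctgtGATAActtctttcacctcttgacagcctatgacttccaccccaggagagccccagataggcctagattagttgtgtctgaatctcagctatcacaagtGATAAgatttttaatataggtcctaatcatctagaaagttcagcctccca
188.9 kb region: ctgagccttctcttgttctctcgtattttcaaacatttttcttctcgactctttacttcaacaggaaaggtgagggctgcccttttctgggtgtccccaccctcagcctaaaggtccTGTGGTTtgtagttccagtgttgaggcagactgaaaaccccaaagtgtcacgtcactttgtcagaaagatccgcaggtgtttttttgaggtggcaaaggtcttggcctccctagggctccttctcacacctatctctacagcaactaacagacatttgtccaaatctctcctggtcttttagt
77.0 kb region: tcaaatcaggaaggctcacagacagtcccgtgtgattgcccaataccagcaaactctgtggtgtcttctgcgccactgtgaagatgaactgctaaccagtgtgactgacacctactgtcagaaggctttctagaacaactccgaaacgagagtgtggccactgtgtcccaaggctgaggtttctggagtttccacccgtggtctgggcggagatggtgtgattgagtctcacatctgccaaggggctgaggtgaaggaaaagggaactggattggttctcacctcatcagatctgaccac

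The promoter held none of the 5 motifs searched, and its GC content of 70.0% was at the 90.8 percentile of 32851 RefSeq promoters. By comparison, 22.6% of those promoters, also cut to 250 bases, held GATAA. In the distal sequences, GATAA was found once in the 510.5 kb region and in 2 places each in the 291.8 kb and 193.9 kb regions, while AACCACA was found once each in the 193.9 kb and 188.9 kb regions. The 77.0 kb sequence held no match. Among the called distal regions not printed, those at 294.0 and 194.6 kb held no match. The one at 201.2 kb held AACCACA once but no GATAA. Over all 113820 regions, 31.8% held GATAA and 11% held AACCACA in their central 300 bases.

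The deposited values are log2 densities, that is, log2 of normalized transposase insertions per kb of region. A density of at least 5 in the mean of a population was taken as accessible. Depth was at least 14005923 to 91681969 insertions per library, as rebuilt from tied values, and intervals or p-values do not cover PCR duplicates. The libraries differed in how widely their insertions spread over regions. The interquartile range of log2 insertions was 1.65 to 1.74 in 3 libraries, called narrow, which were replicates 2 and 3 of lung IL-4+ and replicate 1 of LN IL-4+ cells. It was 2.89 to 3.07 in the other 4, called wide, which were the lung IFNγ+ libraries, replicate 2 of LN IL-4+ and replicate 1 of lung IL-4+ cells. The narrow libraries were also the shallowest, with 14005923 to 23564412 rebuilt insertions against 39068158 to 91681969 in the wide ones. Spread and depth therefore cannot be told apart. Beside many of the results, though not all, the value within the narrow or wide libraries is given. Promoter regions were found for 5 of 5 CD4+ T cell markers (Cd3e, Cd3g, Cd4, Cd5 and Cd28), whose summed density was 97.8 in LN IL-4+, 98.2 in lung IL-4+ and 74.4 in lung IFNγ+ cells. No promoter region was found for the 3 B cell markers, the 4 basophil, mast cell and eosinophil markers or the endothelial marker Cdh5. For 4 other lists, 1 marker each had a promoter region, with densities, in the order above, of 6.96, 4.49 and 4.01 for Cd8b1 (1 of 2 CD8 T cell markers), 2.25, 2.89 and 6.57 for Klrb1c (1 of 2 NK cell markers), 6.03, 6.48 and 5.75 for Cd14 (1 of 3 myeloid markers) and 11.5, 9.08 and 9.35 for Epcam (1 of 3 lung epithelial markers). In sorted bulk populations, fewer cells with an open region and less opening per cell cannot be told apart.

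The Gata3 locus was open in all 3 populations. In the window, 8 regions were accessible in LN IL-4+ cells, 16 in lung IL-4+ cells and 9 in lung IFNγ+ cells, with 7 accessible in all 3 populations. On the 3′ side, these numbers were 24, 30 and 25 of 58, with 17 in all 3. On the 5′ side, they were 20, 12 and 15 of 36, with 9 in all 3. Over all 113820 regions, they were 49717, 49680 and 48851, with 35081 in all 3. These counts were not taken within the narrow or wide libraries. The share accessible in at least 1 population was 61.5% in the window, 63.8% on the 3′ side and 63.9% on the 5′ side, against 58.2% of all regions. The lung IL-4+ cells thus had the most accessible regions of the 3 populations in the window and on the 3′ side, and the fewest on the 5′ side.

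**Figure D1:**
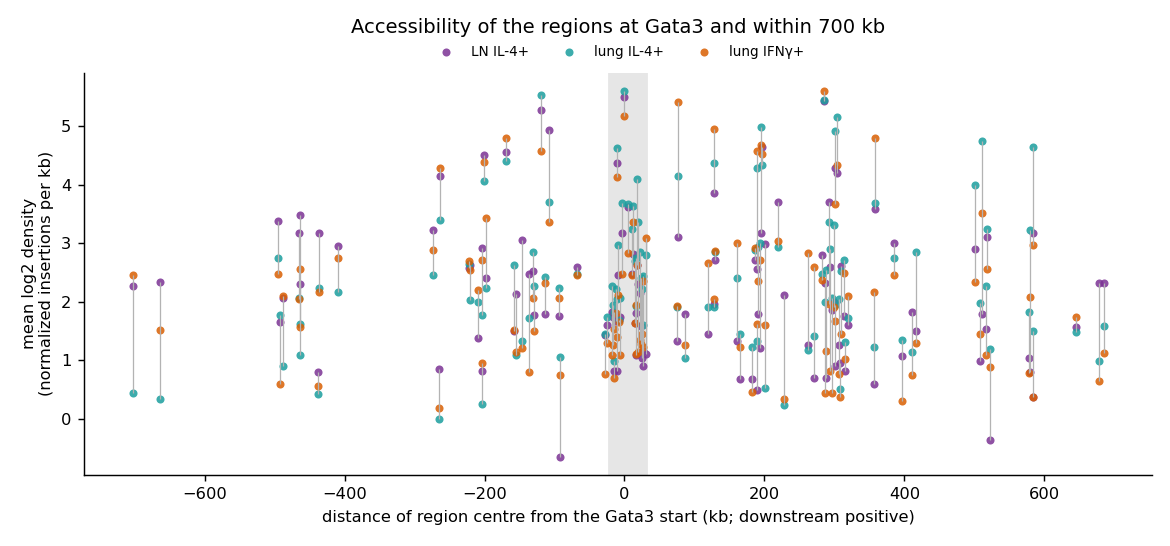
Mean log2 density (normalized insertions per kb) of the 120 regions in the 3 populations against the distance of the region's centre from the Gata3 start in kb, with the Gata3 window shaded and grey lines joining the 3 means of a region. The promoter region and the regions 284.7 kb downstream and 119.2 kb upstream reach the highest densities, and the 3′ side holds most of the regions far from the gene.

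The 26 window regions covered 35.7 kb, with 7 in promoters (within 1 kb of an annotated start), 7 in introns, 2 in exons and 10 between genes. The 3′ side was nearly free of protein-coding genes, and 48 of its 58 regions were intergenic, 9 were in introns of the long noncoding RNA genes Gm13219 and Gm13218 and 1 was in an exon. The 5′ side held Taf3, Atp5c1, Kin, Itih2, Itih5 and Sfmbt2, and 22 of its 36 regions were intronic, 7 were in promoters, 6 were intergenic and 1 was exonic. Because the regions were chosen by distance, those inside other genes may serve those genes. The window also held one of the broadest regions of the experiment, chr2:9868734-9877874, which ran over 9141 bp from just downstream of the main start into the gene and ranked 35 of 113820 by length.

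The region over the main Gata3 start, chr2:9878000-9879902, was about equally open in the IL-4+ populations. Its log2 density was 5.59 and 5.40 in the LN IL-4+ libraries, 5.47, 5.65 and 5.68 in the lung IL-4+ libraries, and 5.13 and 5.23 in the lung IFNγ+ libraries. Its mean density of 44.1 lay at the 96.6 percentile of all regions. The lung IFNγ+ libraries were the lowest and did not overlap the others, but the difference from lung IL-4+ cells was 0.42 on the log2 scale (SE 0.16, limma adjusted p = 0.275, within the wide libraries 0.28) and did not pass the test. LN and lung IL-4+ cells differed by 0.10 (SE 0.16, limma adjusted p = 0.822).

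Another promoter region, chr2:9888974-9890167, lay 11.0 kb upstream at the starts of longer Gata3 transcripts and of the overlapping gene 9230102O04Rik. It had log2 densities of 4.29 and 4.45 in LN IL-4+, 4.58, 4.77 and 4.56 in lung IL-4+ and 4.11 and 4.15 in lung IFNγ+ libraries. The order was the same as at the main start, with lung IL-4+ cells 0.50 above lung IFNγ+ cells (SE 0.18, limma adjusted p = 0.257). Of the other 4 regions within 1 kb of a Gata3 start, the broad chr2:9868734-9877874 had 3.94 and 3.30 in LN IL-4+, 2.94, 4.01 and 4.06 in lung IL-4+ and 2.85 and 2.80 in lung IFNγ+ libraries. In that region the narrow libraries were all above the wide ones, and within the wide libraries lung IL-4+ was only 0.11 above lung IFNγ+ cells, against 0.84 over all. The remaining 3, at chr2:9887347-9888161, chr2:9888316-9888802 and chr2:9890261-9891357, had mean log2 densities between 0.82 and 2.96 in every population, and their limma adjusted p was between 0.227 and 0.914 in the 3 comparisons.

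Inside the gene, the one region past an adjusted p of 0.05 was an intron region 17.5 kb downstream of the start, chr2:9860708-9861467, in the 3′ part of the gene. Its log2 density was 2.47 and 2.77 in LN IL-4+, 3.81, 4.10 and 4.36 in lung IL-4+, and 2.61 and 2.66 in lung IFNγ+ libraries, so that all 3 lung IL-4+ libraries were above the other 4. Lung IL-4+ cells were 1.45 above lung IFNγ+ cells (SE 0.26, 2.74-fold, limma adjusted p = 0.0406) and 1.47 above LN IL-4+ cells (SE 0.26, 2.77-fold, limma adjusted p = 0.0166). Both differences passed an adjusted p of 0.05 but not the 3-fold threshold of a call. Within the wide libraries they were 1.18 and 1.05, and within the narrow ones the difference from LN IL-4+ cells was 1.76. LN IL-4+ and lung IFNγ+ cells differed by 0.02 there (SE 0.28, limma adjusted p = 0.982).

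Next to it, the exon region chr2:9858288-9860660, 19.1 kb downstream and chosen for mention after its values were seen, had the largest difference of the window between the lung populations. Its log2 density was 2.54 and 2.05 in LN IL-4+, 2.54, 3.53 and 3.99 in lung IL-4+ and 0.84 and 1.45 in lung IFNγ+ libraries, with the lung IFNγ+ libraries below all others. Lung IL-4+ cells were 2.21 above lung IFNγ+ cells (SE 0.44, 4.63-fold, limma adjusted p = 0.0597, 1.40 within the wide libraries), just outside the threshold. They were 1.06 above LN IL-4+ cells (SE 0.44, limma adjusted p = 0.269), with libraries that touched at 2.54.

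A broader intron region, chr2:9864236-9867900, 12.5 kb downstream, had 2.85 and 2.78 in LN IL-4+, 2.91, 3.88 and 4.12 in lung IL-4+ and 3.43 and 3.30 in lung IFNγ+ libraries. Here the lung IL-4+ libraries lay on both sides of the lung IFNγ+ libraries, and the comparison of the 2 populations gave 0.28 (SE 0.34, limma adjusted p = 0.706). Within the wide libraries the difference was -0.45, in the other direction. In both lung populations every library was above the LN IL-4+ libraries.

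At the downstream edge of the window, 30.1 kb from the start and beyond the 3′ end of the gene, the intergenic region chr2:9848259-9848799 was low in the lymph node. Its log2 density was 0.61 and 1.62 in LN IL-4+, 2.90, 3.16 and 2.30 in lung IL-4+ and 2.95 and 3.24 in lung IFNγ+ libraries, and every lung library was above both LN libraries. Lung IFNγ+ cells were 1.98 above LN IL-4+ cells (SE 0.44, 3.95-fold, limma adjusted p = 0.0341), the only call in the window, and lung IL-4+ cells were 1.67 above them (SE 0.40, 3.19-fold, limma adjusted p = 0.0555), just outside the threshold. In 9 of 16 other settings of the fit the call was kept. The call was lost without LN IL-4+ replicate 1 (1.48, limma adjusted p = 0.119), without either lung IFNγ+ library (2.13, adjusted p = 0.244, without replicate 1 and 1.83, adjusted p = 0.316, without replicate 2), and also without lung IL-4+ replicate 2, which entered only through the shared spread (adjusted p = 0.065).

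**Figure D2:**
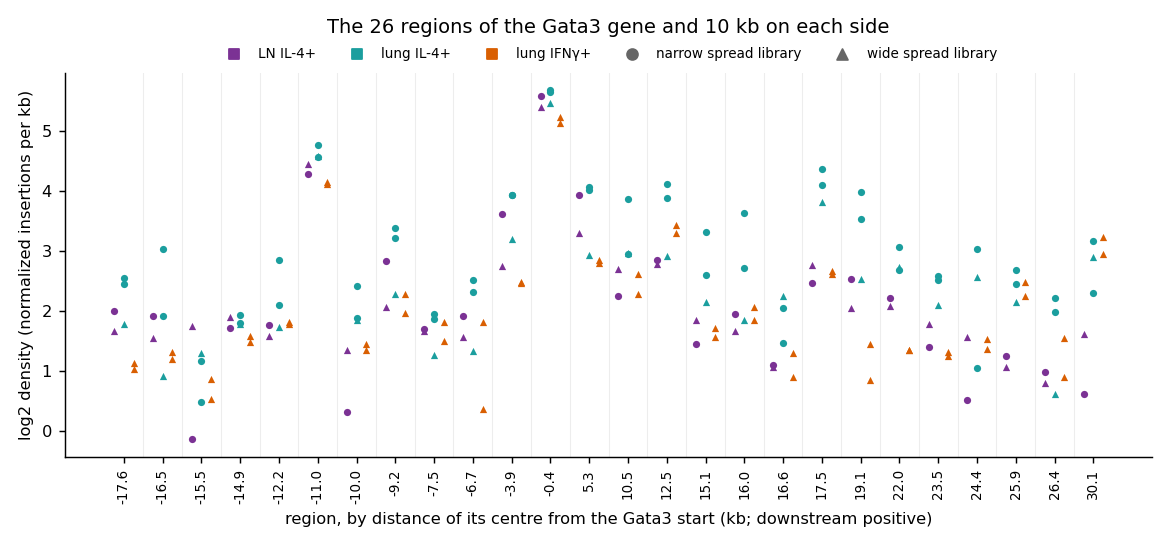
Log2 density (normalized insertions per kb) of each library in the 26 regions of the Gata3 window, ordered by distance from the start in kb, with a colour for each population, circles for narrow and triangles for wide libraries. The lung IL-4+ libraries are often on top, most clearly at 17.5 kb, and the narrow ones among them (circles) tend to lie above the wide one.

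Across the window, lung IL-4+ cells were higher than lung IFNγ+ cells in 25 of 26 regions, with a median difference of 0.78 against -0.01 over all regions. In 14 regions every lung IL-4+ library was above both lung IFNγ+ libraries, and in 0 was it the reverse, where 19.4% and 21.2% of all regions did so. A call needed a limma adjusted p below 0.05 and a 3-fold change, which 0.108% of all regions met with lung IL-4+ and 0.387% with lung IFNγ+ cells higher, and no window region met it. Without the fold threshold, 1 window region passed with lung IL-4+ cells higher, the intron region above, where the background was 0.151%, and 0 passed in the other direction, where it was 0.513%. By unadjusted p below 0.05, limma had 11 window regions (42.3%, background 14.8%). Both lung IFNγ+ libraries were wide, and lung IL-4+ replicate 1 was the wide one of its population. Within the wide libraries, 18 of 26 regions were higher in lung IL-4+ cells, with a median of 0.36. With any 1 library left out, 23 to 25 of the 26 regions were higher in lung IL-4+ cells. The part of library spread in the result was not tested.

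Compared with LN IL-4+ cells, lung IL-4+ cells had the higher mean in 26 of 26 window regions, with a median difference of 0.70 against -0.03 over all regions. The libraries did not overlap in 11 regions, all higher in lung IL-4+ cells (backgrounds 13.6% and 14.3%). No window region was called, where 1.05% of all regions were called higher in lung IL-4+ and 0.695% higher in LN IL-4+ cells, although 8 window regions had an unadjusted limma p below 0.05 (30.8%, background 16.2%). At an adjusted p below 0.05 without the fold threshold, the intron region was the only one (backgrounds 1.88% and 1.05%). Within the narrow libraries 26 of 26 regions were higher in the lung (median 0.83), and within the wide libraries 19 of 26 (median 0.19). Leaving out 1 library gave 23 to 26 positive regions.

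Between lung IFNγ+ cells and LN IL-4+ cells, the window regions went both ways. Lung IFNγ+ cells had the higher mean in 10 of 26 regions, with a median difference of -0.07 against -0.03 over all regions. Libraries did not overlap in 5 regions with lung IFNγ+ cells higher and 10 with LN IL-4+ cells higher (backgrounds 26.5% and 27.2%). The one call was the region 30.1 kb downstream (background 2.17% higher in lung IFNγ+ and 0.862% higher in LN IL-4+ cells), and it was also the only region at an adjusted p below 0.05 (backgrounds 3.03% and 1.16%). The 3 comparisons share libraries pairwise and are not independent of each other.

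The signal summed over all window regions was highest in 2 of the 3 lung IL-4+ libraries. It was 397 and 307 normalized insertions in the LN IL-4+ libraries, 327, 506 and 553 in the lung IL-4+ libraries, and 265 and 272 in the lung IFNγ+ libraries, that is, 352 ± 63.7 (SD, n = 2), 462 ± 119 (SD, n = 3) and 269 ± 4.75 (SD, n = 2). The 3 narrow libraries lay at 397 to 553 and the 4 wide ones at 265 to 327. The difference in mean log2 sum between lung IL-4+ and lung IFNγ+ cells was 0.75 (exact two-sided permutation p = 0.2) and without overlap, but within the wide libraries the difference was 0.29. Lung IL-4+ cells exceeded LN IL-4+ cells by 0.37 (exact permutation p = 0.3), with overlapping libraries, and by 0.41 within the narrow and 0.09 within the wide libraries. The log2 difference of lung IFNγ+ from LN IL-4+ cells was -0.38 (exact permutation p = 0.333, within the wide libraries -0.19), but -0.21 (exact permutation p = 0.333) from rebuilt insertions scaled by library depth and -0.06 (exact permutation p = 1) as the mean of the log2 densities. With 3 against 2 libraries this test cannot go below 0.1, and with 2 against 2 not below 0.333, so none of the 9 sum comparisons could reach 0.05. Their Benjamini-Hochberg adjusted p was 0.225 or 0.333. The difference between lung IL-4+ and LN IL-4+ cells became 0.18 without replicate 2 of LN IL-4+ cells, 0.22 without replicate 3 of lung IL-4+ cells and 0.60 without replicate 1 of lung IL-4+ cells.

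**Figure D3:**
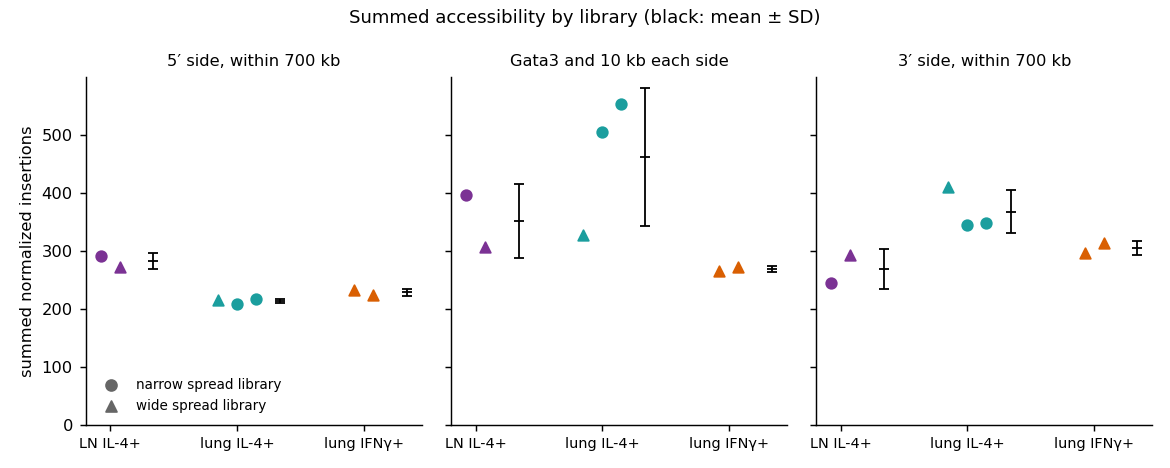
Summed normalized insertions per library on the 5′ side, in the Gata3 window and on the 3′ side for the 3 populations, with circles for narrow and triangles for wide libraries and the mean ± SD in black. In the window the wide libraries of all 3 populations lie together at 265 to 327, whereas on the 3′ side all 3 lung IL-4+ libraries (344 to 410) and on the 5′ side both LN IL-4+ libraries (273 and 292) are the highest.

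On the 3′ side, the sum was highest in lung IL-4+ cells. The LN IL-4+ libraries had 245 and 293 normalized insertions, the lung IL-4+ libraries 410, 344 and 349, and the lung IFNγ+ libraries 296 and 314. Means were 269 ± 34.4 (SD, n = 2), 368 ± 36.6 (SD, n = 3) and 305 ± 12.8 (SD, n = 2), with no lung IL-4+ library overlapping another population. Lung IL-4+ cells were above LN IL-4+ cells by 0.45 (exact permutation p = 0.1, the smallest possible), by 0.50 within the narrow and by 0.48 within the wide libraries. They were above lung IFNγ+ cells by 0.27 (exact permutation p = 0.1) and by 0.43 within the wide libraries. With a distal limit of 500 kb the 0.27 became 0.22 (exact permutation p = 0.2), and after median centring 0.18 (exact permutation p = 0.4). None of these differences within a spread class was smaller than the one over all libraries, but each rested on few libraries. The wide class set lung IL-4+ replicate 1 alone against LN IL-4+ replicate 2 alone, or against both lung IFNγ+ libraries. In the narrow class, LN IL-4+ replicate 1 stood alone against lung IL-4+ replicates 2 and 3. The part of library spread in these differences was not tested.

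The calls on the 3′ side fell into separate stretches, the farthest of which was at 500 to 600 kb. Its strongest member was an intron region of the long noncoding RNA gene Gm13219, chr2:9367606-9368529, 510.5 kb downstream, whose sequence is printed first among the distal ones. It had log2 densities of 0.98 and 2.60 in LN IL-4+, 4.95, 4.50 and 4.79 in lung IL-4+, and 3.45 and 3.57 in lung IFNγ+ libraries, from between 71 and 1258 rebuilt insertions per library. The 3 populations did not overlap. Lung IL-4+ cells were 2.96 above LN IL-4+ cells (SE 0.40, 7.77-fold, limma adjusted p = 0.00609, 3.66 within the narrow and 2.35 within the wide libraries). This was the largest called difference of the locus and was called in 15 of 16 other settings, all but the one with a block for the replicate number. Lung IFNγ+ cells were 1.72 above LN IL-4+ cells (SE 0.43, limma adjusted p = 0.0549) and 1.24 below lung IL-4+ cells (SE 0.40, limma adjusted p = 0.21), and neither passed the test.

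The other regions at 500 to 600 kb had the same leader. A pair of them, at chr2:9294449-9294923 and chr2:9377806-9378344, was chosen for mention after their values were seen. The former had log2 densities of 2.59 and 3.77 in LN IL-4+, 5.10, 4.76 and 4.08 in lung IL-4+ and 2.59 and 3.35 in lung IFNγ+ libraries, and the latter 2.86 and 2.94, then 4.30, 3.71 and 4.01, then 1.78 and 2.88. In both, every lung IL-4+ library was above the other 4, but the limma adjusted p was between 0.0618 and 0.126 for lung IL-4+ against either population. Summed over the 10 regions of this stretch, the libraries had 18.2 and 29.6 normalized insertions in LN IL-4+, 79.9, 58.6 and 58.2 in lung IL-4+, and 23.7 and 32.3 in lung IFNγ+ cells. Their means were 23.9 ± 8.04 (SD, n = 2), 65.5 ± 12.4 (SD, n = 3) and 28 ± 6.06 (SD, n = 2), with the lung IL-4+ libraries apart from the rest in either spread class.

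Another stretch lay between 284.7 and 304.2 kb downstream, near and inside the noncoding gene Gm13218. It held the most open distal region, chr2:9593471-9594377 in an intron of Gm13218, with a mean density of 45.1 at the 96.7 percentile of all regions. Its log2 density was 5.42 and 5.45 in LN IL-4+, 5.65, 5.24 and 5.47 in lung IL-4+ and 5.52 and 5.68 in lung IFNγ+ libraries. The 3 populations differed by 0.16 or less (limma adjusted p between 0.673 and 0.974). Among the 5 densest distal regions was also chr2:9574148-9574591, 304.2 kb downstream, with 3.66 and 4.75 in LN IL-4+, 5.58, 4.85 and 5.05 in lung IL-4+ and 4.26 and 4.42 in lung IFNγ+ libraries, and no comparison there passed (limma adjusted p at least 0.15).

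Beside these shared regions, a pair of broad neighbours was open in both IL-4+ populations and low in lung IFNγ+ cells. The region chr2:9583732-9585548, 294.0 kb downstream, had 2.88 and 2.31 in LN IL-4+, 2.73, 2.86 and 3.11 in lung IL-4+, and 0.53 and 1.09 in lung IFNγ+ libraries. Lung IL-4+ cells were 2.09 above lung IFNγ+ cells (SE 0.36, 4.26-fold, limma adjusted p = 0.0374, 1.92 within the wide libraries), the only call of the locus between the lung populations. Lung IFNγ+ cells were also called lower than LN IL-4+ cells, with a log2 change of -1.78 (SE 0.39, 3.44-fold, limma adjusted p = 0.0331, -1.50 within the wide libraries). The IL-4+ populations differed by 0.31 (SE 0.36, limma adjusted p = 0.753).

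Its neighbour chr2:9585781-9587883, 291.8 kb downstream, with 2 GATAA matches in the sequence printed above, had 3.64 and 3.77 in LN IL-4+, 3.17, 3.63 and 3.29 in lung IL-4+ and 1.95 and 1.98 in lung IFNγ+ libraries. The IFNγ+ libraries were again apart. The log2 change from LN IL-4+ to lung IFNγ+ cells was -1.74 (SE 0.28, 3.34-fold, limma adjusted p = 0.00922, -1.81 within the wide libraries) and was called. Lung IL-4+ cells were 1.40 above lung IFNγ+ cells (SE 0.26, 2.64-fold, limma adjusted p = 0.0445), past the adjusted p but under 3-fold. At chr2:9592049-9592937 in Gm13218, 286.1 kb downstream, the log2 change from LN IL-4+ to lung IFNγ+ cells was as large, at -1.87 (SE 0.54), but did not pass (limma adjusted p = 0.0858), with 2.61 and 2.00 in LN IL-4+, 1.38, 2.39 and 2.22 in lung IL-4+ and 0.87 and 0.01 in lung IFNγ+ libraries.

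The calls at the 294.0 kb region rested on few libraries. The call between the lung populations was lost without lung IL-4+ replicate 2 (2.11, limma adjusted p = 0.167) or 3 (1.99, adjusted p = 0.141) and without lung IFNγ+ replicate 1 (1.81, adjusted p = 0.723) or 2 (2.37, adjusted p = 0.295). The call between lung IFNγ+ cells and LN IL-4+ cells was lost without LN IL-4+ replicate 1 (-1.50, adjusted p = 0.148), replicate 2 of lung IL-4+ cells (adjusted p = 0.0704), lung IFNγ+ replicate 1 (-1.51, adjusted p = 0.348) or replicate 2 (-2.06, adjusted p = 0.151). At 291.8 kb it was lost without either lung IFNγ+ library, replicate 1 (-1.72, adjusted p = 0.139) or 2 (-1.76, adjusted p = 0.111).

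The stretch between 188.9 and 201.2 kb downstream set the lung populations apart from the lymph node. It is intergenic and nearest to the gene model Gm37866. The region chr2:9683660-9684258, 194.6 kb downstream and one of the densest of the locus, had 2.58 and 3.76 in LN IL-4+, 5.33, 4.67 and 4.93 in lung IL-4+ and 4.66 and 4.71 in lung IFNγ+ libraries. Its neighbour chr2:9684481-9684955 at 193.9 kb, with 2 GATAA and 1 AACCACA match, had 1.13 and 1.26, then 3.36, 2.74 and 2.94, then 2.46 and 2.96. The region chr2:9689503-9689938 at 188.9 kb, with 1 AACCACA match, had 2.13 and 2.98, then 4.38, 4.26 and 4.22, then 4.56 and 4.59. In all 3 regions every lung library, IL-4+ or IFNγ+, was above both LN IL-4+ libraries.

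In all 3 of them, lung IL-4+ cells were called higher than LN IL-4+ cells, by 1.81 at 194.6 kb (SE 0.32, limma adjusted p = 0.0176), 1.82 at 193.9 kb (SE 0.33, adjusted p = 0.0201) and 1.73 at 188.9 kb (SE 0.26, adjusted p = 0.00944). Of 16 other settings, 12, 7 and 12 kept these calls, in the same order. Lung IFNγ+ cells were called higher than LN IL-4+ cells at 188.9 kb, by 2.02 (SE 0.29, 4.05-fold, limma adjusted p = 0.00515). At 194.6 and 193.9 kb they were 1.51 and 1.52 higher (limma adjusted p = 0.0405 and 0.0467), past the adjusted p but under 3-fold. The lung populations differed by 0.30 or less in the 3 regions (limma adjusted p between 0.596 and 0.673). Within the wide libraries lung IL-4+ cells were 1.58, 2.09 and 1.39 above LN IL-4+ cells in the 3 regions, and within the narrow ones 2.21, 1.71 and 2.11. A neighbouring region, chr2:9681572-9682065 at 196.8 kb, chosen after its values were seen, was open to a like degree in all populations, with 4.60 and 4.70, then 4.53, 4.18 and 4.30, then 4.61 and 4.44.

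The call of lung IL-4+ over LN IL-4+ cells at 194.6 kb was lost without LN IL-4+ replicate 1 (1.22, limma adjusted p = 0.045, under 3-fold) and without replicate 2 of lung IL-4+ cells (adjusted p = 0.0704) or 3 (adjusted p = 0.0623). The call at 193.9 kb was lost without LN IL-4+ replicate 1 (adjusted p = 0.0566), replicate 2 of lung IL-4+ cells (adjusted p = 0.072) or 3 (adjusted p = 0.0566) and lung IFNγ+ replicate 1 (adjusted p = 0.0534) or 2 (adjusted p = 0.06). The call at 188.9 kb was lost without LN IL-4+ replicate 1 (1.30, adjusted p = 0.0207, under 3-fold) or replicate 2 of lung IL-4+ cells (adjusted p = 0.0632), and that of lung IFNγ+ over LN IL-4+ cells without lung IFNγ+ replicate 1 (2.03, adjusted p = 0.0889) or 2 (2.00, adjusted p = 0.0777).

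One region of the same stretch went the other way. At chr2:9677124-9677590, 201.2 kb downstream, the log2 density was 2.68 and 3.28 in LN IL-4+, 0.90, 1.04 and -0.34 in lung IL-4+ and 1.19 and 2.01 in lung IFNγ+ libraries, so that both LN libraries were on top. The log2 change from LN to lung IL-4+ cells was -2.44 (SE 0.54, 5.44-fold, limma adjusted p = 0.0412, -2.33 within the narrow and -2.38 within the wide libraries). This was the least stable call, kept in 5 of 16 other settings, and of the 7 fits with a library left out only the one without lung IL-4+ replicate 1 kept it. The adjusted p was 0.0868 without LN IL-4+ replicate 1, 0.165 without LN IL-4+ replicate 2, 0.0945 and 0.073 without replicate 2 or 3 of lung IL-4+ cells, 0.0776 without lung IFNγ+ replicate 1 and 0.0906 without lung IFNγ+ replicate 2.

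Closer to the gene, at 77.0 kb downstream, the intergenic region chr2:9801326-9801962 was highest in lung IFNγ+ cells. Its log2 density was 2.71 and 3.51 in LN IL-4+, 4.48, 4.34 and 3.59 in lung IL-4+, and 5.53 and 5.31 in lung IFNγ+ libraries, with no overlap between the populations. Lung IFNγ+ cells were 2.31 above LN IL-4+ cells (SE 0.34, 4.95-fold, limma adjusted p = 0.00606, 1.91 within the wide libraries), a call kept in 14 of 16 other settings and lost without lung IFNγ+ replicate 1 (2.20, adjusted p = 0.0965) or 2 (2.42, adjusted p = 0.0653). The log2 difference of lung IL-4+ from lung IFNγ+ cells was -1.28 (SE 0.31, limma adjusted p = 0.106) and from LN IL-4+ cells 1.03 (SE 0.31, limma adjusted p = 0.119). Another 3′ region, chr2:9519532-9520473 at 358.6 kb, was also highest in lung IFNγ+ cells, with 3.42 and 3.76, then 3.66, 3.62 and 3.79, then 4.77 and 4.80. It passed an adjusted p of 0.05 under 3-fold, at 1.20 above LN IL-4+ (limma adjusted p = 0.0165) and with a log2 difference of -1.09 between lung IL-4+ and lung IFNγ+ cells (limma adjusted p = 0.0472).

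**Figure D4:**
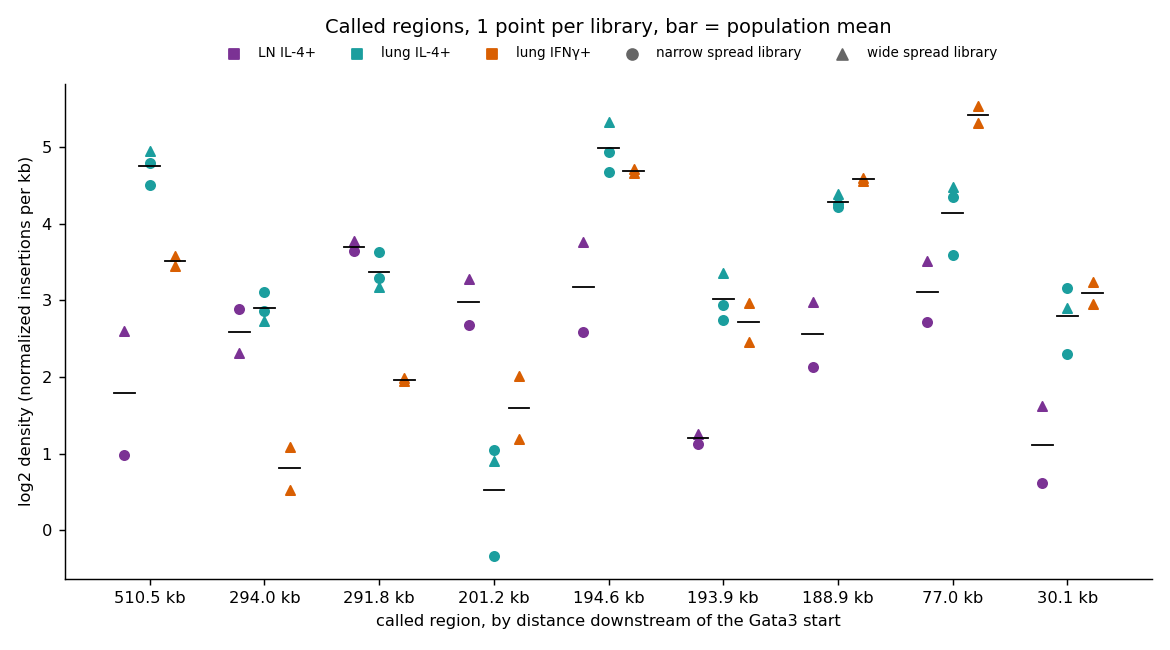
Log2 density (normalized insertions per kb) of each library in the 9 called regions, ordered by distance downstream of the Gata3 start, with a colour for each population, circles for narrow and triangles for wide libraries and a bar at the population mean. The regions at 294.0 and 291.8 kb are low in lung IFNγ+ cells, those at 194.6 to 188.9 kb are low in LN IL-4+ cells, and the one at 510.5 kb is highest in lung IL-4+ cells.

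In all, the 3′ side held 1 call with lung IL-4+ cells higher than lung IFNγ+ cells and 0 the other way. The backgrounds were 0.108% and 0.387%. It held 4 for lung IL-4+ over LN IL-4+ cells and 1 for the reverse (backgrounds 1.05% and 0.695%), and 2 each way between lung IFNγ+ cells and LN IL-4+ cells (backgrounds 2.17% with lung IFNγ+ and 0.862% with LN IL-4+ cells higher). At an adjusted p below 0.05 without the fold threshold, the counts were 2 and 1 (backgrounds 0.151% and 0.513%), 5 and 1 (1.88% and 1.05%), and 5 and 2 (3.03% and 1.16%), among them chr2:9579290-9579980 at 299.0 kb (lung IL-4+ 1.32 above LN IL-4+ cells, limma adjusted p = 0.0495). Lung IL-4+ cells had the higher mean in 36 of 58 regions against lung IFNγ+ cells (median 0.29, within the wide libraries 43 of 58 and 0.61) and in 41 of 58 against LN IL-4+ cells (median 0.52, within the narrow libraries 40 and 0.55, within the wide ones 42 and 0.54). Lung IFNγ+ cells had the higher mean than LN IL-4+ cells in 31 of 58 (median 0.11), and in 25 (median -0.21) within the wide libraries. Libraries did not overlap in 23 regions (39.7%, background 19.4%) with lung IL-4+ and 10 (17.2%, background 21.2%) with lung IFNγ+ cells higher. Between the IL-4+ populations this held in 22 (37.9%, background 13.6%) with the lung and 7 (12.1%, background 14.3%) with the lymph node higher. Between lung IFNγ+ cells and LN IL-4+ cells it held in 20 (34.5%, background 26.5%) with lung IFNγ+ and 16 (27.6%, background 27.2%) with LN IL-4+ cells higher, so that the last share was at the background.

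**Figure D5:**
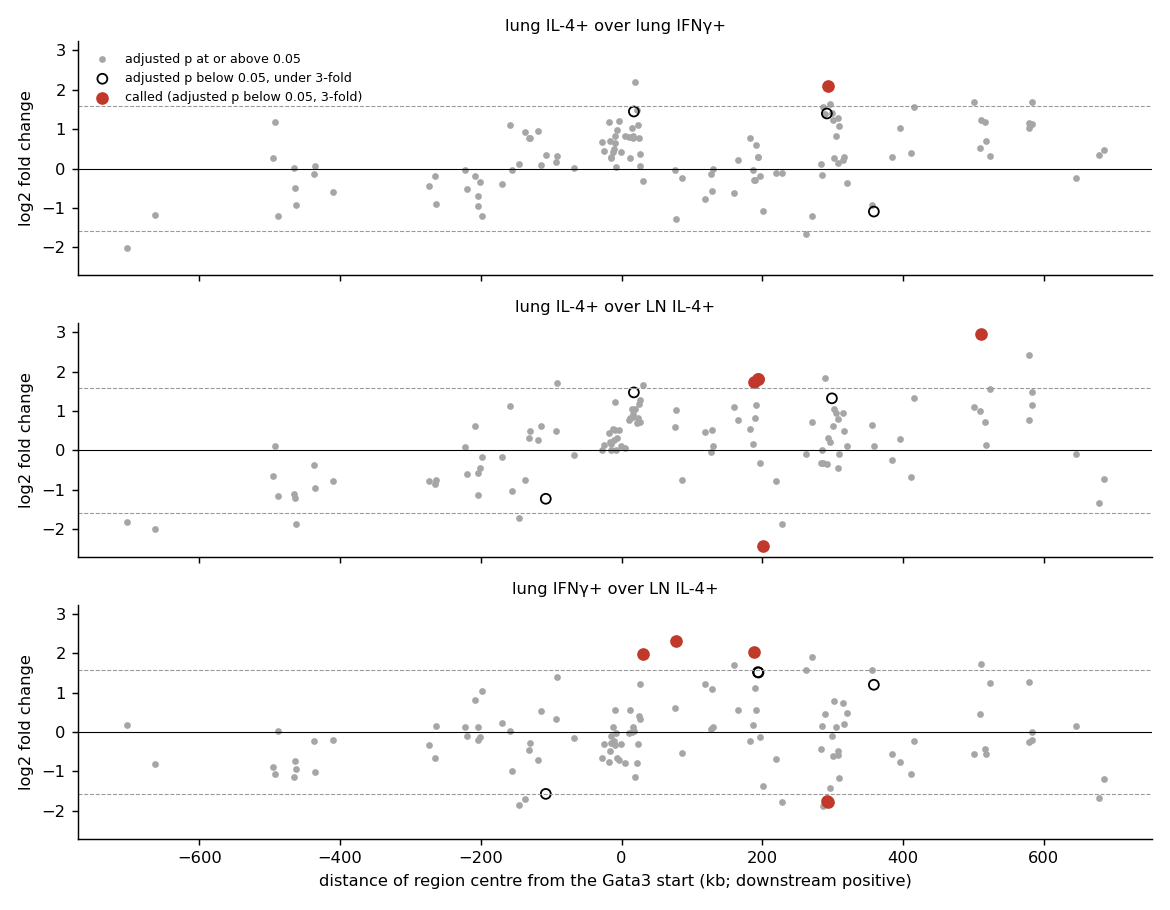
Log2 fold change of the 120 regions in the 3 comparisons against distance from the Gata3 start in kb, with called regions filled in red, regions past the adjusted p but under 3-fold circled in black, other regions in grey and dashed lines at 3-fold. The calls lie on the 3′ side and at the edge of the window, and no region on the 5′ side is called.

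The 5′ side leaned the other way, with LN IL-4+ cells highest. The sums were 292 and 273 normalized insertions in LN IL-4+, 215, 209 and 217 in lung IL-4+ and 233 and 224 in lung IFNγ+ libraries, that is, 283 ± 14 (SD, n = 2), 214 ± 4.41 (SD, n = 3) and 228 ± 6.39 (SD, n = 2). No libraries of different populations overlapped, and the spread between replicates was small. The log2 difference of lung IL-4+ from LN IL-4+ cells was -0.40 (exact permutation p = 0.1, -0.46 within the narrow and -0.34 within the wide libraries), of lung IFNγ+ from LN IL-4+ cells -0.31 (exact permutation p = 0.333) and of lung IL-4+ from lung IFNγ+ cells -0.10 (exact permutation p = 0.1). The size of the last one depended on the scaling, with -0.03 (exact permutation p = 0.9) from rebuilt insertions scaled by library depth, -0.04 (exact permutation p = 0.4) after quantile normalization and -0.18 (exact permutation p = 0.2) after median centring.

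Single 5′ regions gave 0 calls in any of the comparisons, with 9 of 36 regions (25%, background 14.8%) at an unadjusted limma p below 0.05 between the lung populations, 15 (41.7%, background 16.2%) between lung IL-4+ and LN IL-4+ cells and 8 (22.2%, background 18.5%) between lung IFNγ+ cells and LN IL-4+ cells. Lung IL-4+ cells had the higher mean in 12 of 36 regions against LN IL-4+ cells (median -0.59), and LN IL-4+ libraries were all higher in 19 regions (52.8%, background 14.3%) against 3 for the reverse (8.33%, background 13.6%). The region past the adjusted p was in an intron of Taf3, which encodes a subunit of the general transcription factor TFIID, at chr2:9986089-9986525, 107.7 kb upstream. It had log2 densities of 4.75 and 5.12 in LN IL-4+, 4.18, 3.36 and 3.58 in lung IL-4+ and 3.49 and 3.25 in lung IFNγ+ libraries. Both lung populations were below LN IL-4+ cells there, by log2 differences of -1.23 for lung IL-4+ (limma adjusted p = 0.0385) and -1.57 for lung IFNγ+ cells (limma adjusted p = 0.0167).

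The most open 5′ regions were the Taf3 intron region chr2:9997543-9997986 (119.2 kb upstream) and the Taf3 promoter chr2:10047407-10049079. The intron region had 5.27 and 5.28 in LN IL-4+, 5.68, 5.22 and 5.69 in lung IL-4+ and 4.51 and 4.64 in lung IFNγ+ libraries, with lung IL-4+ cells 0.96 above lung IFNγ+ cells (SE 0.19, limma adjusted p = 0.0528), just outside the threshold. The promoter, at 4.62 and 4.50, then 4.40, 4.45 and 4.34, then 4.84 and 4.73, differed by 0.39 or less in size. The farthest 5′ region, chr2:10581099-10581499 in an intron of Sfmbt2, which encodes a Polycomb group protein, had 2.16 and 2.38 in LN IL-4+, 0.43, 0.88 and 0.01 in lung IL-4+ and 2.79 and 2.10 in lung IFNγ+ libraries. Its lung IL-4+ libraries were all lowest, but neither difference passed (-2.01 from lung IFNγ+, limma adjusted p = 0.0898, and -1.83 from LN IL-4+ cells, limma adjusted p = 0.0652). Between lung IL-4+ and lung IFNγ+ cells, 5′ libraries did not overlap in 9 regions (25%, background 19.4%) with lung IL-4+ and 14 (38.9%, background 21.2%) with lung IFNγ+ cells higher. Between lung IFNγ+ cells and LN IL-4+ cells they did not overlap in 6 (16.7%, background 26.5%) with lung IFNγ+ and 18 (50%, background 27.2%) with LN IL-4+ cells higher.

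Sequence motifs were searched on both strands in the central 300 bases of every region. GATAA was present in 11 of 26 window regions (42.3%), 24 of 58 regions on the 3′ side (41.4%) and 11 of 36 on the 5′ side (30.6%), against 31.8% of all 113820 regions. AACCACA was present in 0, 11 (19%) and 5 (13.9%), against 11% of all regions, and TGAGTCA, the AP-1 motif, in 0, 11 (19%) and 4 (11.1%), against 9.49%. CAGGAAGT, an ETS motif, was in 0, 6 (10.3%) and 6 (16.7%), against 5.67%, and TTCNNNNGAA, the spaced sites of STAT6, in 1, 6 and 3, against 8.13%. The letters of these motifs do not show binding.

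Genes of the GATA3 pathway, each with the 10 kb around it, were read from the same fit. Of 11 genes for signals upstream of Gata3 (295 regions), 0 regions were called between the lung populations (40, or 13.6%, at an unadjusted limma p below 0.05, background 14.8%). Between the IL-4+ populations 8 were called higher in the lung (2.71%, background 1.05%) and 0 lower (background 0.695%). In lung IFNγ+ against LN IL-4+ cells 5 were called higher (1.69%, background 2.17%) and 2 lower (0.678%, background 0.862%), shares near the background. The calls were in Il2ra, the IL-2 receptor alpha chain, the IL-2 signal transducers Stat5a and Stat5b, the receptor Notch2 and its DNA-binding partner Rbpj, which alone held 5 of the 8 and 3 of the 5. No region of Il4ra, the IL-4 receptor alpha chain, or Stat6 was called. The median differences were 0.45, 0.26 and -0.15 for lung IL-4+ against lung IFNγ+, lung IL-4+ against LN IL-4+ and lung IFNγ+ against LN IL-4+ cells, beside -0.01, -0.03 and -0.03 over all regions. Of 12 partner and antagonist genes (244 regions), 0 regions were called between the lung populations (62, or 25.4%, at an unadjusted limma p below 0.05, background 14.8%). Against LN IL-4+ cells, 8 were called higher in lung IL-4+ (3.28%, background 1.05%) and 5 in lung IFNγ+ cells (2.05%, near the background of 2.17%), with 0 lower. They were in Tbx21 (T-bet), Runx1 and Runx3, and the medians of the 3 comparisons were 0.53, 0.29 and -0.27.

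Of 11 genes known to be bound or regulated by GATA3 in Th2 cells (159 regions), 3 regions were called higher (1.89%, background 0.108%) and 6 lower (3.77%, background 0.387%) in lung IL-4+ than lung IFNγ+ cells. The 3 were in the window of Il4, one of them also in that of its neighbour Il13, and the 6 were in those of Ifng (2) and Il12rb2 (4), a Th1 cytokine and a chain of the IL-12 receptor. Against LN IL-4+ cells, 21 regions were called higher in lung IL-4+ (13.2%, background 1.05%) and 0 lower (background 0.695%). Of the 21, 11 were in the window of Il1rl1, the IL-33 receptor gene with 10 kb on each side, 4 in that of Il5 and 3 in that of Il13. In lung IFNγ+ cells 20 were called higher than in LN IL-4+ cells (12.6%, background 2.17%), 9 of them in the window of Il1rl1, and 3 lower (1.89%, background 0.862%), all in that of Il4. The remaining calls were in Ccr8, Il10, Stat4, Ifng, Il12rb2 and Il5. Medians were -0.02, 0.55 and 0.51. Of the 5 other GATA zinc finger genes with regions among 6 listed (55 regions), Trps1 held the calls, 2 lower in lung IL-4+ (3.64%, background 0.695%) and 1 higher in lung IFNγ+ cells (1.82%, background 2.17%), both against LN IL-4+ cells, with medians of -0.41, -0.08 and 0.22.

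The protein-coding genes whose window sums followed the Gata3 window most closely over the 7 libraries, by root mean square difference of centred log2 sums, were Csrnp1 (0.036), Ifngr2 (0.064), Fam107b (0.076), Hif1a (0.078) and Fam71b (0.083), among 9680 genes with a median of 0.430. Csrnp1, for example, had log2 sums of 8.50 and 8.15 in LN IL-4+, 8.33, 8.85 and 9.03 in lung IL-4+, and 7.96 and 8.02 in lung IFNγ+ libraries. In all 5 genes, as in the Gata3 window, the wide libraries of both IL-4+ populations lay below the narrow ones.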

How the data were processed

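ATAC-seq reads were mapped to GRCm38/mm10 with Bowtie2 2.3.2, peak summits were called per replicate with MACS2 2.1.1 and merged over replicates, and insertions per region were counted and normalized with voom of limma 3.38.3 by the authors, per the paper's methods and the submitters' processing notes. The deposited values are log2 normalized insertions per kb. Their distributions nearly coincided between libraries, as quantile normalization leaves them, although the methods name no such step. All 7 value columns were assigned to a library by their names and 0 were left over. Region starts were converted from 0-based to 1-based positions, and annotated with GENCODE M21 and RefSeq.

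All 113820 regions were fitted with limma 3.58.1 in R 4.3.3, with 1 mean per population and a trended prior variance, and p-values were adjusted by Benjamini-Hochberg within a contrast. Called regions changed at least 3-fold with an adjusted p below 0.05. Values were used without a pseudocount or filter. Sums were compared by exact permutation tests over libraries in Python 3.11.15. The limma calls were also run on simulated data. Recovery was required there only for changes larger than any called here and a spread smaller than observed. Rebuilt insertions are the number of lower distinct values in a library and are lower bounds, with ties judged at 8 decimals. Named regions were those within 1 kb of a Gata3 start, all called regions, the 5 densest of the window and of the distal set, and the largest non-overlapping distal change per comparison and direction. The regions at 358.6 and 299.0 kb downstream and 107.7 kb upstream fell outside this rule. They were named for an adjusted p below 0.05. Genes like Gata3 were the 5 protein-coding genes with the smallest difference in centred log2 window sums. The members, lists and tests were chosen with earlier results of these data known. Alternatives were another pseudocount (1), filter, normalization, weighting, covariate, replicate block, fold threshold, locus limits and each library left out.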

Additional observations from a re-analysis of the deposited data

How the results depend on the processing

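In every alternative run, the direction of the 9 summed differences (114 alternatives) and of the 11 called differences (16 fits each) stayed as reported, but sizes did not. For lung IFNγ+ minus LN IL-4+ cells, -0.38 in the window became -0.06 with the mean of the log2 densities and -0.21 with rebuilt insertions scaled by library depth, and 0.19 on the 3′ side became 0.11 and 0.06. For lung IL-4+ minus LN IL-4+ cells, 0.37 in the window became 0.68 with the mean of the log2 densities and 0.22 with the replicate block. For lung IL-4+ minus lung IFNγ+ cells, -0.10 on the 5′ side became -0.03 with rebuilt insertions, -0.04 with quantile normalization and -0.18 with median centring, and 0.27 on the 3′ side became 0.18 with median centring. The number of called regions depended on the setting. It was 1 for lung IL-4+ against lung IFNγ+, 5 for lung IL-4+ against LN IL-4+ and 5 for lung IFNγ+ against LN IL-4+ cells. In that order, it was 4, 3 and 3 with 2 populations at a time, 7, 4 and 7 with array weights, 7, 14 and 7 with spread class as a covariate, 4, 4 and 13 with voom on rebuilt counts, 4, 8 and 9 at a 2-fold threshold, and 1, 4 and 2 with log2(density + 1). Median centring, quantile normalization and a density filter kept the counts within 1.5 times. With a library left out, the ranges were 0 to 4, 1 to 11 and 0 to 9, with 0 for lung IL-4+ against lung IFNγ+ cells without lung IL-4+ replicate 2 or 3 or either lung IFNγ+ library, and 0 for lung IFNγ+ against LN IL-4+ cells without either lung IFNγ+ library. In the population reduced to 1 library, that library was assumed to vary like the others. With the replicate number as a replicate block, 0, 0 and 1 regions were called, where limma had 38, 45 and 33 members at an unadjusted p below 0.05 without the block. Deviations of same-numbered libraries from their population means had r of -0.02 and -0.01, -0.54 and -0.30, and 0.06 and 0.06 in the 3 comparisons. The values of -0.54 and -0.30, from lymph node against lung, cannot decide whether the replicate numbers pair the samples. For each of these numbers, one tissue gave a narrow library and the other a wide one. The block therefore cannot be set aside on this ground. With 2 or 3 libraries a population, the summed differences could not pass 0.05 in any setting. Counts were low in weak regions, for example 16 to 283 rebuilt insertions per library at 201.2 kb downstream. The cause of these changes was not tested.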
